A study of Mus musculus with 10 samples.

Results

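The genes of ubiquinone biosynthesis were described in the jejunum of mice with and without an intestinal NDI1 transgene. The group holds 9 genes (Pdss1, Pdss2, Coq2, Coq3, Coq4, Coq5, Coq6, Coq7 and Coq9), chosen by name for their place in the synthesis of coenzyme Q and not by their values. All 9 were found among the 45707 rows of the gene table, each as 1 row, and all were read in every mouse. None of the 9 differed between the genotypes beyond the spread between mice. For 8 of them the 95% confidence interval of the difference lay within 2-fold in either direction, as it did for 79.6% of the 14301 genes tested. The exception was Coq4, whose normalized count ran from 136 to 840.5 across the 10 mice.

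Ubiquinone, or coenzyme Q, is a lipid of the inner mitochondrial membrane that takes electrons from complex I, complex II and several other dehydrogenases and hands them to complex III. Its long isoprenoid tail is built from mevalonate pathway products, its ring comes from tyrosine, and a complex of COQ proteins on the matrix side of the membrane then decorates the ring. NDI1, the rotenone-insensitive NADH dehydrogenase of budding yeast, uses ubiquinone as its electron acceptor in place of complex I, so the transgene adds a further enzyme that draws on the same pool.

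The 5 Vil-Cre:NDI1 mice carried a Villin-Cre transgene on a B6.Cg background and an NDI1 sequence behind a lox-stop-lox cassette at the ROSA26 locus, and the 5 Vil-Cre controls carried Villin-Cre without it. Cre driven by the Villin promoter recombines in intestinal epithelium, whereas RNA was taken from jejunum, whose muscle, immune and nerve cells keep the stop cassette. All 10 mice were male littermates of 8 to 12 weeks that had been fasted for 16 to 18 h, received only water by gavage and were sampled 1 h later. The comparison asks whether the transgene itself changes transcript levels.

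Values are normalized counts, that is, reads assigned to a gene divided by a size factor for the library, with 10145705 to 12371530 reads on genes per library and size factors of 0.852 to 1.098. NDI1 had 1566 ± 598 (SD, n = 5 mice) normalized counts in Vil-Cre:NDI1 mice and at most 1 read in any control, with 4 controls at 0. Epithelial transcripts were the most abundant of the marker lists, with medians per kb of 1.67e+04 normalized counts over 10 enterocyte genes, 2e+04 over 5 Paneth genes and 4007 over 5 goblet genes, against 1153 over 6 smooth muscle genes and 52.3 over 5 T cell genes. All 10 enterocyte genes had a higher and all 5 goblet genes a lower mean in Vil-Cre:NDI1 mice, with median log2 fold changes of 0.22 and -0.21, and none of the 10 or the 5 passed an adjusted p of 0.05 in limma. The part of these shifts in the values given here was not tested, and in bulk tissue fewer cells of a type cannot be told apart from less RNA per cell.

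The start regions of 5 members are shown because Pdss1, Pdss2, Coq2 and Coq9 stood in the pairs of members most closely related between mice and Coq4 the widest spread. Each line gives 300 bases on the gene's own strand, from 250 before the RefSeq transcription start to 50 after it, in GRCm38.p6. The windows are chr2:22895272-22895571 (plus strand) for Pdss1, chr10:43221236-43221535 (plus strand) for Pdss2, chr5:100674207-100674506 (minus strand) for Coq2, chr8:94838163-94838462 (plus strand) for Coq9 and chr2:29787243-29787542 (plus strand) for Coq4. Capitals mark matches, on either strand, to CCGGAAG (the core of an ETS factor site, read here as its reverse complement CTTCCGG), to GCGCATGC (the core of an NRF1 site), to AAGATGGC (the core of a YY1 site) or to CACGTG (an E-box).
Pdss1: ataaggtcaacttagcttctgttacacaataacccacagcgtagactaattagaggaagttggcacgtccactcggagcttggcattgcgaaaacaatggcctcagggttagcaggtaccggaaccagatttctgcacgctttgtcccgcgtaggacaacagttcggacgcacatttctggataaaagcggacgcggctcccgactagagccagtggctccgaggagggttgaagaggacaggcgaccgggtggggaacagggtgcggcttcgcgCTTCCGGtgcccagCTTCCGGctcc
Pdss2: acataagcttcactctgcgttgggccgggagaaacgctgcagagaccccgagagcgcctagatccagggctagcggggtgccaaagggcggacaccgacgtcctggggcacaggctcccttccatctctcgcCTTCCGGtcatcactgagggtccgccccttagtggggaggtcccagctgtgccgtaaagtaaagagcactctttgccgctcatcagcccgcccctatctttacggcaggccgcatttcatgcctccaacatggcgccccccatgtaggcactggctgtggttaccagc
Coq2: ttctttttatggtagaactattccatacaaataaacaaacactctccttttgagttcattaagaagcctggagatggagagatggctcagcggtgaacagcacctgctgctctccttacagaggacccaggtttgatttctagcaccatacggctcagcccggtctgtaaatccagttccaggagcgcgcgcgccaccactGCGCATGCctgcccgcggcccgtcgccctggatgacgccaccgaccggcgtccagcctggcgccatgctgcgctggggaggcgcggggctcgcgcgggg
Coq9: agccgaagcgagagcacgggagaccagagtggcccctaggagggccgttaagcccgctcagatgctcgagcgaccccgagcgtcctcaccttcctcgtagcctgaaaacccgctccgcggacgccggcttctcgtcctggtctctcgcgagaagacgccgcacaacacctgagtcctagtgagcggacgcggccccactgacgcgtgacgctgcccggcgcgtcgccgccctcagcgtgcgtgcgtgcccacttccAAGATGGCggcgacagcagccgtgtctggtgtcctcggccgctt
Coq4: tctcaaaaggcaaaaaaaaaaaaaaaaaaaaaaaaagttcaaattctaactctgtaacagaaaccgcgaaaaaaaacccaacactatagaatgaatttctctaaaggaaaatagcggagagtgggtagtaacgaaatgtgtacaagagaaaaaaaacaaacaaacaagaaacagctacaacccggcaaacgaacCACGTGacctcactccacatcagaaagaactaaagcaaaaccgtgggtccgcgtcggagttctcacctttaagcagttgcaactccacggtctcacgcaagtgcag

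Pdss1 held the ETS motif at positions 26 to 32 and 40 to 46 after the start, and Pdss2 held it from -118 to -112, while 9.93% of 27025 genes with a window had at least 1 match. Coq2 held the NRF1 motif from -49 to -42 (3.05% of all genes), Coq9 the YY1 motif from 7 to 14 after the start (3.19%) and Coq4 the E-box from -56 to -51 (8.09%). Among the members not printed, Coq6 also held the ETS motif, Coq6 and Coq7 held CCAAT (41.1%), and no member window held TATAAA (15.7%). None of the motifs searched for was therefore found in all 8 members with a window, and Coq5 had no window. The 9 windows of these 8 genes had 12 to 39 CpG dinucleotides, against a median of 7 over all 32851 windows, and Coq4 had the lowest G and C content of them, at 39.7%. A match is a description of the letters and not a measured binding site.

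Pdss1 and Pdss2 encode the subunits of the polyprenyl diphosphate synthase, which makes the isoprenoid tail. Pdss1 (ENSMUSG00000026784, chr2:22895522-22940266) had 425, 368, 328, 277 and 387 normalized counts in Vil-Cre mice 1 to 5 and 363, 318, 340, 348 and 250 in Vil-Cre:NDI1 mice 1 to 5. The groups overlapped, with Vil-Cre:NDI1 5 below and the other 4 transgenic mice within the control range, and the log2 fold change (Vil-Cre:NDI1 minus Vil-Cre, on log2 of the value plus 1) was -0.14 with an SE of 0.14 (limma, adjusted p = 0.998). Pdss2 (ENSMUSG00000038240, chr10:43221486-43464882) had 163, 177, 198, 177 and 179 normalized counts in the controls and 177, 165, 195, 197 and 271 in the transgenic mice. Here Vil-Cre:NDI1 5 was the highest of all 10, and without it the transgenic mean was 183 ± 15.1 (SD, n = 4) against 179 ± 12.8 (n = 5) in the controls. With all mice the log2 fold change of Pdss2 was 0.15 with an SE of 0.14 (limma, adjusted p = 0.998). The subunits thus lay on opposite sides of 0 in their mean difference, and neither difference exceeded the spread.

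Coq2 (ENSMUSG00000029319, chr5:100654723-100675140, minus strand) encodes the transferase that joins the tail to the ring, and it was the steadiest member. Its normalized counts were 402, 349, 325, 353 and 396 in Vil-Cre mice and 377, 378, 349, 394 and 306 in Vil-Cre:NDI1 mice. The highest of the 10 values was 1.31 times the lowest, and only 19.6% of the 500 genes nearest to Coq2 in mean level had a smaller spread within genotypes. The log2 fold change was -0.017 (SE 0.099), with a 95% confidence interval of -0.23 to 0.20.

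Coq6, Coq3 and Coq5 encode enzymes that modify the ring. Coq6 (ENSMUSG00000021235, chr12:84361657-84373796), the flavin hydroxylase fed by a ferredoxin chain, had 119, 192, 236, 151 and 107 normalized counts in the controls and 136, 127, 153, 175 and 134 in the transgenic mice. Coq3 (ENSMUSG00000028247, chr4:21879673-21912162), the O-methyltransferase, had 115, 70.0, 126, 178 and 126 in the controls and 128, 126, 118, 120 and 93.9 in the transgenic mice. Both genes had all 5 transgenic values inside the control range, and their SD was smaller in Vil-Cre:NDI1 mice (19.5 against 53.5 for Coq6 and 13.7 against 38.4 for Coq3), a difference in spread that was not tested. Coq5 (ENSMUSG00000041733, chr5:115279666-115296972), the C-methyltransferase, had 250, 232, 222, 278 and 298 normalized counts in Vil-Cre mice and 269, 266, 328, 271 and 235 in Vil-Cre:NDI1 mice. The log2 fold changes were -0.096 (SE 0.21) for Coq6, -0.017 (SE 0.22) for Coq3 and 0.096 (SE 0.12) for Coq5.

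Coq7 and Coq9 act together, COQ7 being the hydroxylase of the penultimate step and COQ9 a lipid-binding protein that presents its substrate. Coq7 (ENSMUSG00000030652, chr7:118509659-118533356, minus strand) had 227, 247, 349, 251 and 237 normalized counts in the controls and 296, 345, 361, 272 and 281 in the transgenic mice. Every transgenic mouse was above 4 of the 5 controls, and Vil-Cre 3 was the control that overlapped them. Without that control, left out because of its own value, the log2 fold change was 0.36, with an interval of 0.11 to 0.61 (limma, adjusted p = 0.940). These values follow from that choice and are a description only. With all mice the log2 fold change of 0.25 (SE 0.14, 95% confidence interval -0.043 to 0.55) had the smallest p of the 9 members, 0.0862 before and 0.998 after adjustment in limma, and an exact permutation p of 0.111 (two-sided, n = 5 and 5). Coq9 (ENSMUSG00000031782, chr8:94838321-94854895) had 571, 498, 733, 747 and 577 normalized counts in the controls and 691, 701, 725, 582 and 876 in the transgenic mice. Its groups overlapped widely, with a log2 fold change of 0.20 (SE 0.14, limma, adjusted p = 0.998) and an exact permutation p of 0.262 (two-sided, n = 5 and 5).

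Coq4 (ENSMUSG00000026798, chr2:29787493-29797935) encodes a protein needed to hold the COQ complex together. Its normalized counts were 358, 410, 206, 292 and 155 in Vil-Cre mice and 136, 148, 160, 149 and 840.5 in Vil-Cre:NDI1 mice. In 4 of the 5 transgenic mice the value lay between 136 and 160, with 3 of them below the lowest control, and in the remaining mouse it was above every control. The 716 reads behind the value of Vil-Cre:NDI1 5 gave a 95% Poisson interval of 780.0 to 904, which covers counting error only and stays far from the 160 of the next transgenic mouse. The arithmetic means were nearly the same, 284 ± 105 against 287 ± 310 (SD, n = 5), whereas the log2 fold change was -0.35 (SE 0.48, 95% confidence interval -1.40 to 0.69, limma, adjusted p = 0.998). Without Vil-Cre:NDI1 5, which was left out because of its own value, the transgenic mean of Coq4 was 148 ± 9.61 (SD, n = 4). The log2 fold change was then -0.85 with a 95% confidence interval of -1.42 to -0.28 (limma, p = 0.00753 before and 0.999 after adjustment, exact permutation p = 0.0317). In that fit 541 of 14155 genes had an unadjusted p under 0.05. The narrower spread and the low unadjusted p values follow from the choice of the mouse left out, so they are given as a description only.

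**Figure D1:**
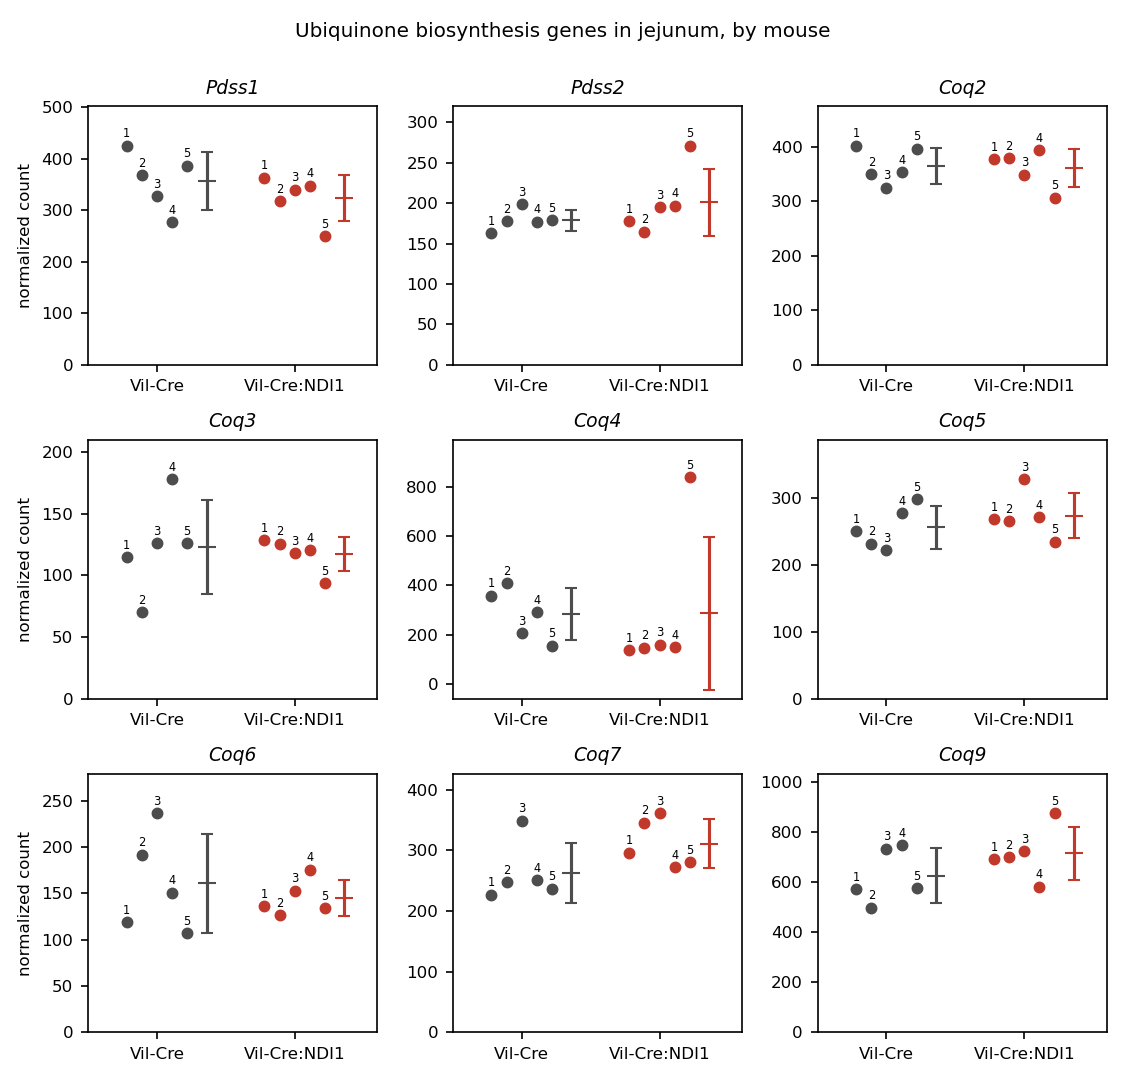
Normalized counts (vertical axes, from 0 except for Coq4) of the 9 ubiquinone biosynthesis genes in each mouse, with Vil-Cre mice in grey and Vil-Cre:NDI1 mice in red; digits are mouse numbers and bars the mean ± SD of 5 mice. All 9 pairs of groups overlap, and Vil-Cre:NDI1 5 stands at 840.5 for Coq4 while the other 4 transgenic mice lie between 136 and 160, so that its SD bar passes below 0.

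The start of Coq4 overlaps that of Trub2, a pseudouridine synthase gene on the opposite strand. Their gene bodies overlap by 1010 bases, and 921 exonic bases, 27.1% of the exons of Coq4, are also exons of Trub2. The strand setting of the counting is not given in the sources used here, so reads of this stretch cannot be told apart between the genes. Trub2 had 275, 262, 459, 352 and 281 normalized counts in the controls and 443, 547, 410, 390 and 381 in the transgenic mice, with a log2 fold change of 0.43 (limma, adjusted p = 0.998). The library with 840.5 for Coq4 had 381 for Trub2, the lowest of the 5 transgenic libraries and within the control range of 262 to 459. The part of Trub2 reads in the Coq4 values was not tested. Exons shared with an opposite-strand protein-coding gene made up 4.57% of Pdss1 (Abi1), 4.07% of Coq6 (Fam161b) and 1.24% of Coq9 (Ciapin1).

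At an adjusted p of 0.05 in limma, 0 of the 9 members were called, beside 0.00699% of the 14301 genes tested. That share is 1 gene, the NDI1 transgene itself. At an unadjusted p of 0.05 the count was also 0, beside 4.24% of all genes, and the groups of 5 failed to overlap for 0 members, beside 0.699% of all genes. DESeq2 and edgeR on the recovered reads also called 0 members, beside 31 of 17330 genes in DESeq2 and 1 of 14290 in edgeR. All 9 members passed the filter of at least 10 normalized counts in at least 5 mice. The mean log2 value of 4 members was higher and that of 5 lower in Vil-Cre:NDI1 mice. Coq4 is among the 5, although its arithmetic mean was 286.6 in Vil-Cre:NDI1 and 284.5 in Vil-Cre mice. The median log2 fold change was -0.017, beside 0.0052 over all genes tested, of which 51.2% were higher. Exact permutation p values ran from 0.111 to 0.913, where the smallest possible with 5 against 5 mice is 0.00794.

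The intervals say how large a difference could have been missed. For Pdss1, Pdss2, Coq2, Coq3, Coq5, Coq6, Coq7 and Coq9 the 95% confidence interval of the ratio stayed between 0.680, the lower bound for Coq6, and 1.47, the upper bound for Coq7. For Coq4 it ran from 0.379 to 1.62. Among all genes tested, 79.6% had an interval within 2-fold in either direction, as did these 8 members.

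**Figure D2:**
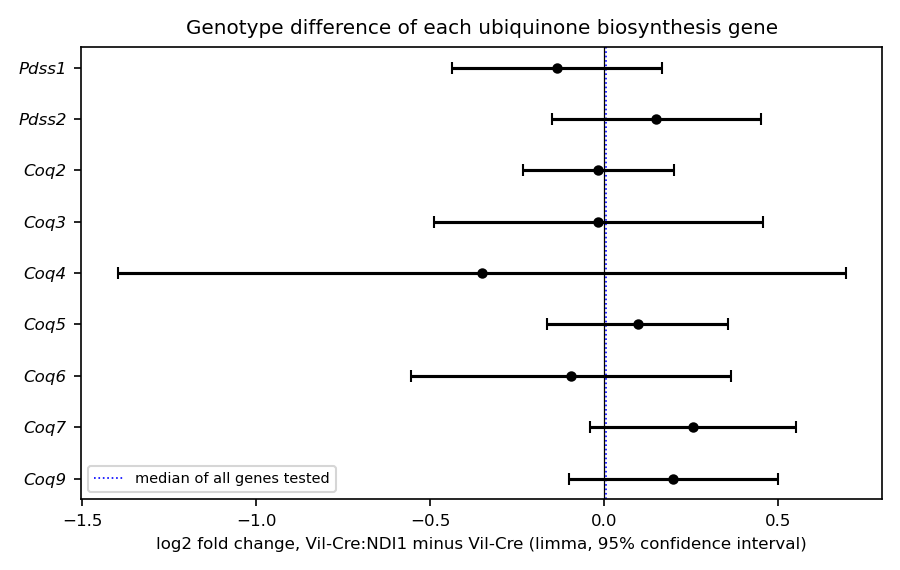
Log2 fold change between genotypes (horizontal axis, Vil-Cre:NDI1 minus Vil-Cre, limma on log2 of the normalized count plus 1) for each ubiquinone biosynthesis gene, with 95% confidence intervals from 5 mice per group. All 9 intervals cross 0, the dotted line marks the median of all genes tested at 0.0052, and the interval of Coq4, from -1.40 to 0.69, is the widest.

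The spread between mice of 1 genotype exceeded counting error for every member. Expressed as the ratio of the within-genotype SD of the log2 value to the SD that counting alone would give, it ran from 1.80 for Coq2 to 8.98 for Coq4. Among the 500 genes nearest to it in mean level, 97.4% had a smaller spread than Coq4, whereas the other members stood between 19.6% and 67.8%. The summed normalized count of the 9 genes was 2612 ± 110 (SD, n = 5; 2462 to 2724) in Vil-Cre mice and 2734 ± 319 (2508 to 3287) in Vil-Cre:NDI1 mice. The sum of 3287 was that of Vil-Cre:NDI1 5, with 840.5 from Coq4, and the other transgenic mice had 2508 to 2729.

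The transgenic mouse numbered 5 held the extreme value for 5 of the 9 genes, being highest for Pdss2, Coq4 and Coq9 and lowest for Pdss1 and Coq2. In that library 28.8% of all genes tested were at the highest or lowest of the 10 values, and in Vil-Cre 5 it was 29.0%, with 1 member extreme there. The same library had the highest summed enterocyte marker level, 7.01e+05 against 3.58e+05 to 5.94e+05 in the controls, and the lowest summed goblet level, 5.41e+04 against 7.23e+04 to 9.19e+04. The part of cell makeup in these member values was not tested.

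Levels of different genes were compared as normalized counts per kb of the union of annotated exons, over all 10 mice. Coq9 was the highest at 219 ± 36.6 (SD), in first place in 10 of 10 mice, followed by Coq2 at 138 ± 12.2, which was second in 9 and stood below Coq4 in Vil-Cre:NDI1 5. Coq5 (87.3 ± 10.6), Coq4 (84.0 ± 64.1) and Pdss1 (80.1 ± 12.02) came next by mean. Their order changed from mouse to mouse, Coq5 being above Coq4 in 7 mice and Coq4 above Pdss1 in 4. Coq4 ran from 40.1 to 247 per kb and was at rank 4 in only 1 mouse, so its mean rank does not describe most mice. The lowest Coq4 value was below the means of Coq6 and Coq7. Pdss1 was above Coq6 in 10 of 10 mice. The lowest means were those of Coq6 (48.7 ± 12.4), Coq7 (44.6 ± 7.69), Coq3 (40.1 ± 9.14) and Pdss2 (31.8 ± 5.22). Neighbours among them did not keep their order in all mice (Coq6 above Coq7 in 5, Coq7 above Coq3 in 7 and Coq3 above Pdss2 in 8).

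Pdss1 therefore stood above its partner subunit Pdss2 in every mouse, at 58.9 to 100.1 against 27.3 to 45.5 normalized counts per kb. The median member level of 80.1 compared with 44.5 per kb over all genes tested, and the highest member was 6.89 times the lowest. The order depends on the length used. With the longest annotated transcript or with the mean coding transcript only 2 of the 9 ranks in each case were kept, those of Coq9 and Coq2, and Coq7 took rank 6 or rank 3 in place of rank 7.

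**Figure D3:**
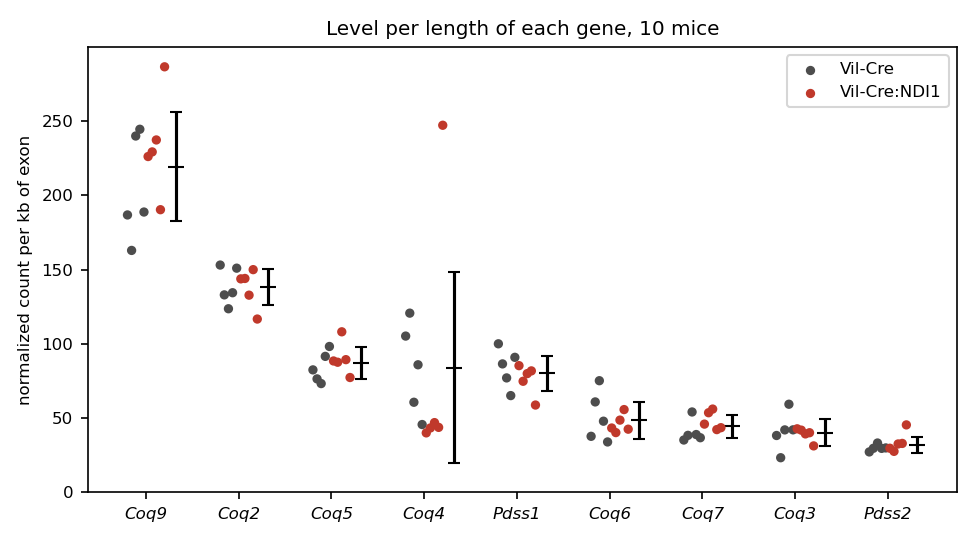
Normalized count per kb of union exon (vertical axis, from 0) of each ubiquinone biosynthesis gene in 5 Vil-Cre (grey) and 5 Vil-Cre:NDI1 (red) mice, with the mean ± SD of all 10. Coq9 at 219 and Coq2 at 138 stand apart from the rest, and the single high Coq4 value reaches 247.

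Co-variation between mice was examined after subtracting each genotype's mean, for all 36 pairs of members over 10 mice. After Benjamini-Hochberg adjustment of permutation p values, 0 pairs passed 0.05, and 7 passed before adjustment. Pdss1 and Coq2 had r = 0.77 and rho = 0.76 (permutation p = 0.00974 and 0.0145, adjusted p = 0.117 and 0.470), and r was 0.75 without the 2 mice farthest from the median of Pdss1. Pdss1 and Coq9 had r = -0.79 and rho = -0.71 (permutation p = 0.00764 and 0.0261, adjusted p = 0.117 and 0.470), with r = -0.51 without those 2 mice. Pdss2 and Coq2 had r = -0.78 and rho = -0.48 (permutation p = 0.00456 and 0.167, adjusted p = 0.117 and 0.499), with r = -0.67 without 2 mice. For Pdss2 and Coq4, r moved from 0.70 to -0.14 without 2 mice, Vil-Cre:NDI1 5 and 2, so the relation rested on them. Over the 36 pairs, 14 coefficients were positive and 22 negative, with a median of -0.15. Leaving out 1 control, Vil-Cre 2, brought 2 pairs past the adjusted threshold (Pdss1 with Coq9 and Coq2 with Coq9), and leaving out Vil-Cre:NDI1 4 brought 1 (Pdss2 with Coq2).

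**Figure D4:**
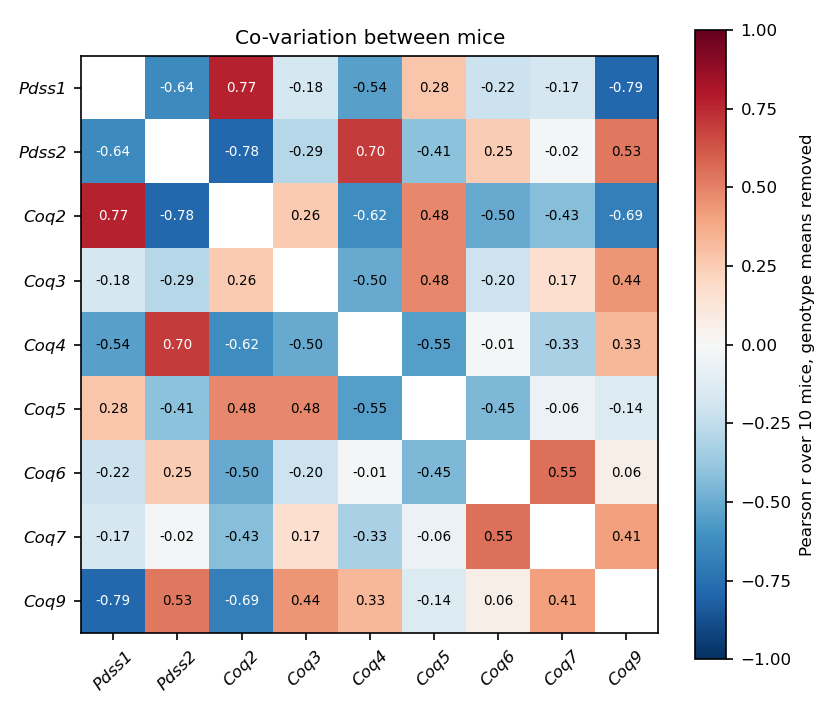
Pearson correlation of each pair of ubiquinone biosynthesis genes over 10 mice, from log2 values with the genotype means removed (red positive, blue negative). Of 36 pairs, 22 are negative, and the 3 most extreme are Pdss1 with Coq9 (-0.79), Pdss2 with Coq2 (-0.78) and Pdss1 with Coq2 (0.77).

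The 5 genes outside the group whose levels most resembled the mean z-score of the 9 members over the 10 mice were Zfp617 (r = 0.90), Lsm8 (0.90), Chrnb2 (0.89), Papln (0.87) and Gpcpd1 (0.86). These coefficients share their libraries and were picked as the highest of all genes tested, so they are given as a description only. With a median r of -0.15 between pairs of members, the mean z-score is not a profile that the members shared.

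The wider pathway was read from 8 lists of 51 genes, of which 50 were in the table and passed the filter, with 1, Choldh, not analysed here. None of the 50 passed an adjusted p of 0.05 in limma. At an unadjusted p of 0.05, 1 was higher and 1 lower in Vil-Cre:NDI1 mice, 4% beside the 4.24% of all genes, and the groups did not separate for any of the 50. The median log2 fold change was 0.066.

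Of the genes with an unadjusted p under 0.05, Coq10b encodes a carrier that binds coenzyme Q. It had 236 ± 48.2 normalized counts in Vil-Cre and 307 ± 51.3 in Vil-Cre:NDI1 mice (SD, n = 5), with a log2 fold change of 0.39 (SE 0.17, limma, adjusted p = 0.998) and an exact permutation p of 0.0556. The other 3 genes of its list, the kinase-like Coq8a and Coq8b (listed as Adck3 and Adck4) and Coq10a, had log2 fold changes of -0.36, 0.096 and 0.0095. Tat, tyrosine aminotransferase, is a strongly hepatic enzyme and had 38.1 ± 31.2 normalized counts in the controls and 6.17 ± 4.83 in transgenic mice, with a log2 fold change of -2.20 (SE 0.64, limma, adjusted p = 0.998) and an exact permutation p of 0.0159. Its list also held Hpd and Hpdl, with log2 fold changes of -0.38 and -0.099. The summed level of the 5 hepatocyte markers Alb, Ahsg, Fgb, Apoh and Hpx was 23.3 to 1051 in controls and 12.7 to 69.7 in transgenic mice, and its part in the Tat values was not tested.

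The mevalonate pathway, which supplies the tail, had 9 of 9 log2 fold changes below 0, with 0 at an unadjusted p of 0.05. They ran from -0.21 to -0.00075 with a median of -0.11, and the arithmetic means were not lower for all 9. The smallest limma p of this list belonged to Acat2, at -0.21 (exact permutation p = 0.230). In the ferredoxin chain that feeds COQ6, Fdxr had the smallest limma p, with a log2 fold change of 0.15 (exact permutation p = 0.143).

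Genes whose products use the finished ubiquinone had slightly higher means, and none passed the unadjusted threshold. Among 11 genes of enzymes that reduce ubiquinone, 9 had a higher mean, with a median log2 fold change of 0.10, and the smallest limma p was that of the quinone reductase Nqo1, at 0.25 (exact permutation p = 0.159). All 3 complex I subunits at the quinone site and all 10 subunits of complex III had higher means, with medians of 0.065 and 0.094. Their smallest limma p values were those of mt-Nd1, at 0.13 (exact permutation p = 0.421), and of Uqcrfs1, the Rieske protein, at 0.14 (exact permutation p = 0.151). Of 7 genes for general mitochondrial content 6 had a higher mean, with a median of 0.090 and the smallest limma p at the outer membrane channel gene Vdac2, at 0.15 (p = 0.0835, exact permutation p = 0.0238). These lists moved beside the enterocyte markers given above, and the part of cell makeup was not tested.

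By level per length the median was 80.1 normalized counts per kb over the 9 biosynthesis genes, 55.0 over the kinases and carriers, 96.5 over the mevalonate genes, 312 over the enzymes that reduce ubiquinone, 1353 over the complex I subunits at the quinone site and 1571 over complex III. The highest member, Coq9 at 219, was under the lowest complex III gene at 1003. The enzymes that reduce ubiquinone overlapped the members, since Dhodh (13.5), Aifm2 (32.2), Prodh (93.8), Nqo1 (140.5) and Etfdh (170.0) were below Coq9 and Dhodh was below every member.

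**Figure D5:**
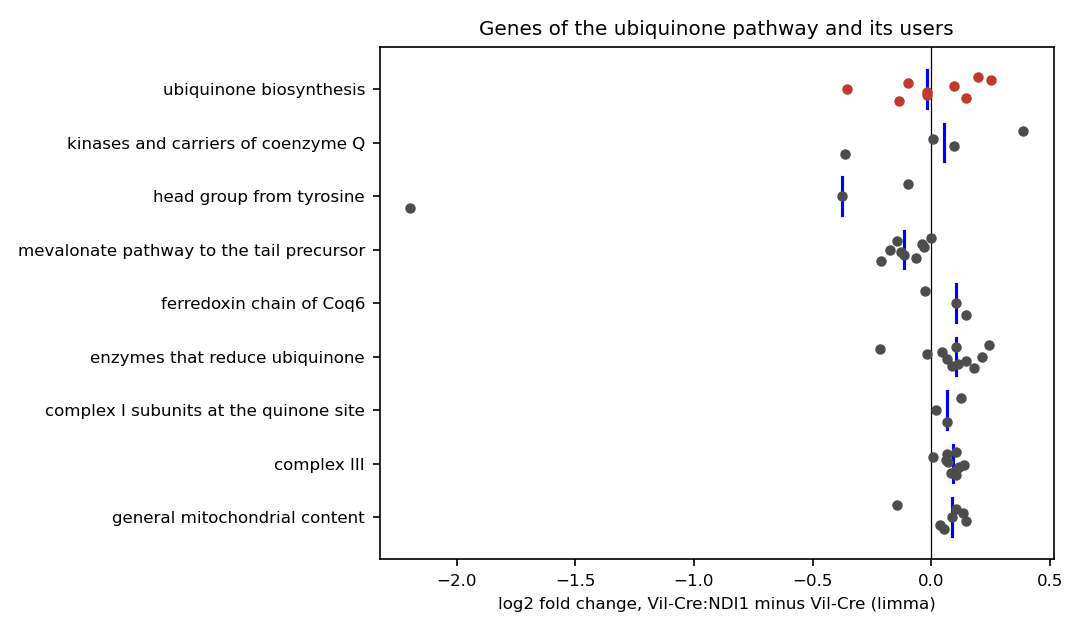
Log2 fold change (horizontal axis, Vil-Cre:NDI1 minus Vil-Cre, limma) of each tested gene in the ubiquinone biosynthesis group (red) and in 8 related lists (grey), with the list median as a blue bar. All medians lie between -0.38 and 0.10, and Tat at -2.20 is the outlying point in the list of head group enzymes.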

How the data were processed

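RNA was extracted from the jejunum of 10 mice (5 per genotype, 1 library each) and sequenced single-end for 100 cycles. Libraries were made with a NEBNext Ultra DNA kit per the labels. The authors used nf-core/rnaseq 3.12.0, with trimGalore! 0.6.7, STAR 2.6.1d on GRCm38 with the NDI1 sequence added, and Salmon 1.10.1, and scaled with DESeq2 1.46.0. The annotation release and strand setting are not given in the sources used here. The deposited values are a signal, normalized counts per gene: whole reads divided by a size factor. The value of 1 read was recovered from the low values, and 100% of values in each library were whole multiples of it (tolerance 0.1 read). For 2 libraries, Vil-Cre 3 and 4, the step is too near 1 to check, so count tests were run on all 10 libraries and on the other 8. The table has 0 unused sample columns, and 26289 genes had a read.

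Genotypes were compared with limma 3.58.1 (R 4.3.3) on log2 of the value plus a pseudocount of 1 (eBayes, trended prior variance), two-sided, for the 14301 genes that reached 10 in 5 or more mice, with Benjamini-Hochberg adjustment over all of them and a threshold of 0.05. A fold change on this scale understates that of low genes. Exact permutation tests enumerated every assignment of mice to groups. Correlations between members used 100000 permutations. Exon lengths came from GENCODE M21 (GRCm38) and start regions from RefSeq (GRCm38.p6). DESeq2 1.42.0 and edgeR 4.0.16 were alternatives. The labels' replicate numbers were not taken to pair mice: deviations from group means of same-numbered mice correlated from -0.12 to 0.14. The limma script was tested on simulated data. The rule for named genes takes NDI1, every member, and in each pathway list the gene with the smallest p and any with an unadjusted p under 0.05. It also takes the 5 genes most like the mean z-score of the members. Trub2 and the other overlapping neighbours, Hpd, Hpdl, Coq8a, Coq8b and Coq10a were named beside these after their values were seen. The members and lists were chosen with earlier results of these data known.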

Additional observations from a re-analysis of the deposited data

Results flagged for a closer look

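Within each genotype, the gap between the most extreme mouse and its nearest neighbour was compared with the range of the 5 mice, for each of the 9 genes. Of 18 groups, 2 had a gap above Dixon's 95% critical value of 0.71, where chance gives 0.9 on average. Coq4 in Vil-Cre:NDI1 5 had a normalized count of 840.5 against 160 in the nearest transgenic mouse, a gap of 0.967 of the range. Coq7 in Vil-Cre 3 had 348.6 against 251 in the nearest control, a gap of 0.805 of the range. Vil-Cre 3 was the only control that overlapped the transgenic mice for Coq7. Leaving it out because of its own value therefore fixed in advance that all 5 transgenic mice were above every control. The log2 fold change was then 0.36 with a 95% confidence interval of 0.11 to 0.61 (limma, p = 0.00905 before and 0.940 after adjustment, exact permutation p = 0.0159). In that fit 712 of 14131 genes had an unadjusted p under 0.05. These values follow from the same choice and are given as a description only. The values of Coq4 without Vil-Cre:NDI1 5 are given with the other values of that gene.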

How the results depend on the processing

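The count of members past an adjusted p of 0.05 was 0 under all 23 alternatives, and the lowest adjusted p was 0.111, for Coq7 in DESeq2 on 8 libraries (added after seeing the data). In that fit the log2 fold changes were 0.39 for Coq7, 0.38 for Coq9 and -0.28 for Pdss1 (DESeq2, unadjusted p = 0.00314, 0.00464 and 0.0390). The other members stayed above an unadjusted p of 0.05, and 1958 of 16953 genes were under it. With array weights Coq7 had 0.34 (limma, unadjusted p = 0.0232), where 792 of 14301 genes were under 0.05. Among 207 values of single members 193 kept their direction and 14 reversed, in 4 genes. Coq3 turned to 0.095 with array weights, 0.18 with DESeq2 and 0.17 with edgeR on 8 libraries. Coq6 turned to 0.065 and 0.058 in the same 2 fits, and Coq4 to 0.0099 in DESeq2 on 10 libraries. Leaving out each mouse gave -0.058 to 0.040 for Coq2 (0.019 without Vil-Cre 1, 0.014 without Vil-Cre 5), -0.20 to 0.13 for Coq3 (0.0074 without Vil-Cre 3, 0.0075 without Vil-Cre 5, 0.061 without Vil-Cre:NDI1 5), -0.23 to 0.058 for Coq6 and -0.85 to -0.20 for Coq4. The median log2 fold change of the members was 0.095 with array weights, 0.074 with DESeq2 and 0.067 with edgeR on 8 libraries, -0.079 with equal totals, and -0.035 to 0.13 when each mouse was left out, highest without Vil-Cre 4. The number of member pairs past the threshold was 0 to 2 when each mouse was left out. Other lengths kept 2 and 2 of the 9 ranks by level. With the replicate number as a block (replicate block), 0 members and 1 gene of 14301 were called, with the same counts without it. DESeq2 called 31 of 17330 genes on 10 libraries and 269 of 16953 on 8, against 1 in limma. The cause of these changes was not tested. The members had 64 to 769 reads per library, and their spread was 1.80 to 8.98 times that of counting alone. With 5 mice a group the interval leaves Coq4 open to differences of over 2-fold.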
